A study of Mus musculus with 8 samples.

Results

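The 10 genes described here encode proteins of the Bcl2 family, which decide whether a cell's mitochondria stay intact. They were taken as a fixed list (Bcl2, Bcl2l1, Mcl1, Bax, Bak1, Bid, Bad, Bbc3, Pmaip1 and Bcl2l11), and all 10 were found among the 55276 gene symbols of the deposited count table. All 10 passed the filter on low counts, which left 17344 genes for testing. RNA came from the esophageal epithelium of C57BL6 mice aged 14 to 15 weeks, with no genetic change or agent named in the labels, whose treatment field holds the Cyto-ID fraction. Live cells that carried integrin beta-1 were sorted by Cyto-ID, a dye of autophagic vesicles, into a Cyto-ID Low and a Cyto-ID High fraction. Each of 4 animals (Female1, Female2, Male1 and Male2) gave 1 library of each fraction, so that 4 libraries stood against 4. The labels do not say that animals were pooled, and the sort is the only manipulation that separates the groups.

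Proteins of this family act at the mitochondrial outer membrane. Bcl2, Bcl-xL (the main product of Bcl2l1) and Mcl1 keep the membrane closed by holding their relatives in check, while Bax and Bak form the pores that release cytochrome c and so start the caspase cascade. A group that shares only the short BH3 domain (Bid, Bad, Puma from Bbc3, Noxa from Pmaip1 and Bim from Bcl2l11) neutralises the protectors or activates the pore formers. In stratified epithelia these proteins help to set how long a basal cell survives, and the BH3 groove of Bcl2 and Bcl-xL also binds Beclin 1 of the autophagy machinery.

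3 of the 10 genes changed the most and had separate ranges in the fractions, so the DNA just upstream of their start sites is shown before the values. Bcl2 and Bcl2l11 fell in Cyto-ID High and Bid rose. The bases are those before the transcription start in RefSeq (GRCm38.p6), written on the strand of the gene and ending next to the start, except that the Bid stretch leaves out the bases beside the RefSeq start that a GENCODE transcript covers. Capitals mark every match on either strand to 6 short motifs. The GC box, the binding motif of Sp1 and its relatives, was searched as GGGCGG. The box bound by the NF-Y complex, common in promoters of many kinds, was searched as CCAAT. The element of the FOXO factors, which respond to growth factor signals, was searched as GTAAACA. The E-box bound by Myc and by the MiT/TFE factors of lysosome genes was searched as CACGTG. The AP-1 element, bound by pairs of Fos and Jun proteins, was searched as TGANTCA. The element of the E2F factors, which act at the entry into the cell cycle, was searched as TTTCCCGC. The Bcl2 stretch is chr1:106714291-106714540 on the minus strand, the Bcl2l11 stretch chr2:128125788-128126037 on the plus strand and the Bid stretch chr6:120916854-120917074 on the minus strand.
Bcl2: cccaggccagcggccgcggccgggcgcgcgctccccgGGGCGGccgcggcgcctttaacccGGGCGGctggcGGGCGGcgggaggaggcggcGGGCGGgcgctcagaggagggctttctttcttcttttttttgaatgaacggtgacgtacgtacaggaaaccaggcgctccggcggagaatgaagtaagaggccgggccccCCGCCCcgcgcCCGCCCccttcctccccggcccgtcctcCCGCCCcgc
Bcl2l11: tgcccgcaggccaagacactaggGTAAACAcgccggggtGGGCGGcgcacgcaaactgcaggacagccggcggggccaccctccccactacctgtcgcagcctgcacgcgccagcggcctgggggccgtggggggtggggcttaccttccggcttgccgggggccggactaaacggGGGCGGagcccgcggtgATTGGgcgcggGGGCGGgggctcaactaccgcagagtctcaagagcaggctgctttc
Bid: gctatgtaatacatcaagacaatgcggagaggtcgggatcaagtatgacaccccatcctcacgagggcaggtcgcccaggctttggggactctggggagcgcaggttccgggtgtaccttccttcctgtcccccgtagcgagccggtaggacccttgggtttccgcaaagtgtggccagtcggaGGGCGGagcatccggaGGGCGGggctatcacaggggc
The Bcl2 stretch held 7 GC boxes and no match to the other 5 motifs. None of the stretches held a half-site of p53, which occurred in 7.13% of the windows described next. The Bcl2l11 stretch held 3 GC boxes, 1 CCAAT box and 1 FOXO element, whose first base lies 227 bases before the start. RefSeq lists another start of this gene. The 250 bases before it, not shown, held 2 GC boxes, 2 CCAAT boxes and no FOXO element. The 221 bases shown for Bid held 2 GC boxes, and its full window of 250 bases held 3. Over all 32851 windows of 250 bases in the RefSeq table, a GC box occurred in 32.7%, a CCAAT box in 33.8%, a FOXO element in 3.17%, an E-box in 6.02%, an AP-1 element in 6.75% and an E2F element in 0.895%. No 2 of the matches share letters in these stretches. These matches describe the letters only, and nothing in the series measured binding at them.

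The 8 libraries held 26285150 to 29301054 counts. The identity of the sorted cells was checked with markers of the epithelial layers. All 12 genes of a basal keratinocyte list were lower in Cyto-ID High and 17 of 18 genes of a suprabasal list were higher, although the labels describe both fractions as basal cells. The gate's own integrin gene, Itgb1, had 370 ± 32 CPM in Low against 68.2 ± 18.3 in High (SD, n = 4). The basal list summed to 22800 to 27200 CPM (counts relative to library size, with TMM factors) in Low and to 2890 to 4660 in High. All 12 proliferation genes were lower in High as well, with a summed level of 442 to 1260 CPM in Low and 96.3 to 251 in High. Leukocyte markers summed to 90.9 to 134 CPM in Low and 15.7 to 120 in High, with 1 gene called higher, 2 lower and 7 not called of 10 tested. The lowest sum was that of Male2 High, which was also lowest in fibroblast, endothelial and muscle markers (57.2, 2.62 and 5.04 CPM). The largest values of those 3 lists in any library were 559, 28.8 and 56.7 CPM. Stomach markers reached 18.6 and 115 CPM in the Low and High libraries of Female2 and at most 1.03 CPM in the other 6. Fewer cells of a type and less RNA per cell cannot be told apart in these bulk libraries. The part of the epithelial layers, proliferation and other cell types in the differences below was not tested.

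Of the 10 genes, 5 passed the test between the fractions, with 3 higher (Bid, Bcl2l1, Bad) and 2 lower (Bcl2, Bcl2l11) in Cyto-ID High. The test was edgeR's quasi-likelihood test with sex as a covariate and Benjamini-Hochberg adjusted p under 0.05 over all 17344 genes. This threshold was passed by 48.7% of all genes tested, 23.4% higher and 25.3% lower, so that the share of the family, 50%, was near that of genes in general. On the log2 scale the family had a median difference of 0.24, High minus Low, beside −0.09 over all genes. The CPM ranges of the fractions did not overlap for 5 of the 10, the same 5 that passed, and for 48.6% of all genes. Bcl2, Bcl2l11 and Bid differed most among the 10. They were picked as the extremes of 10 genes, so their ranks do not set them apart from genes in general. Of all tested genes, 4.53% had a log2 fold change below that of Bcl2, 6.57% below that of Bcl2l11 and 8.65% above that of Bid. Bcl2 was the 1 member called lower by 4-fold or more, as were 5.88% of all genes tested. Without both libraries of Female2, Bcl2 was at −2.15 (adjusted p 0.000835), Bcl2l11 at −1.87 (0.000941) and Bid at 1.46 (0.00769), and without both of Male2 these genes were at −2.24 (6.11e-05), −1.85 (0.000193) and 1.48 (0.00173). With each animal as a replicate block 7 members passed, 5 higher and 2 lower, where 53.8% of all genes passed, 25.4% higher and 28.5% lower. Scaling by total counts only let 6 members pass, 1 higher and 5 lower, where 61.7% of all genes passed, 12.6% higher and 49.1% lower.

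**Figure D1:**
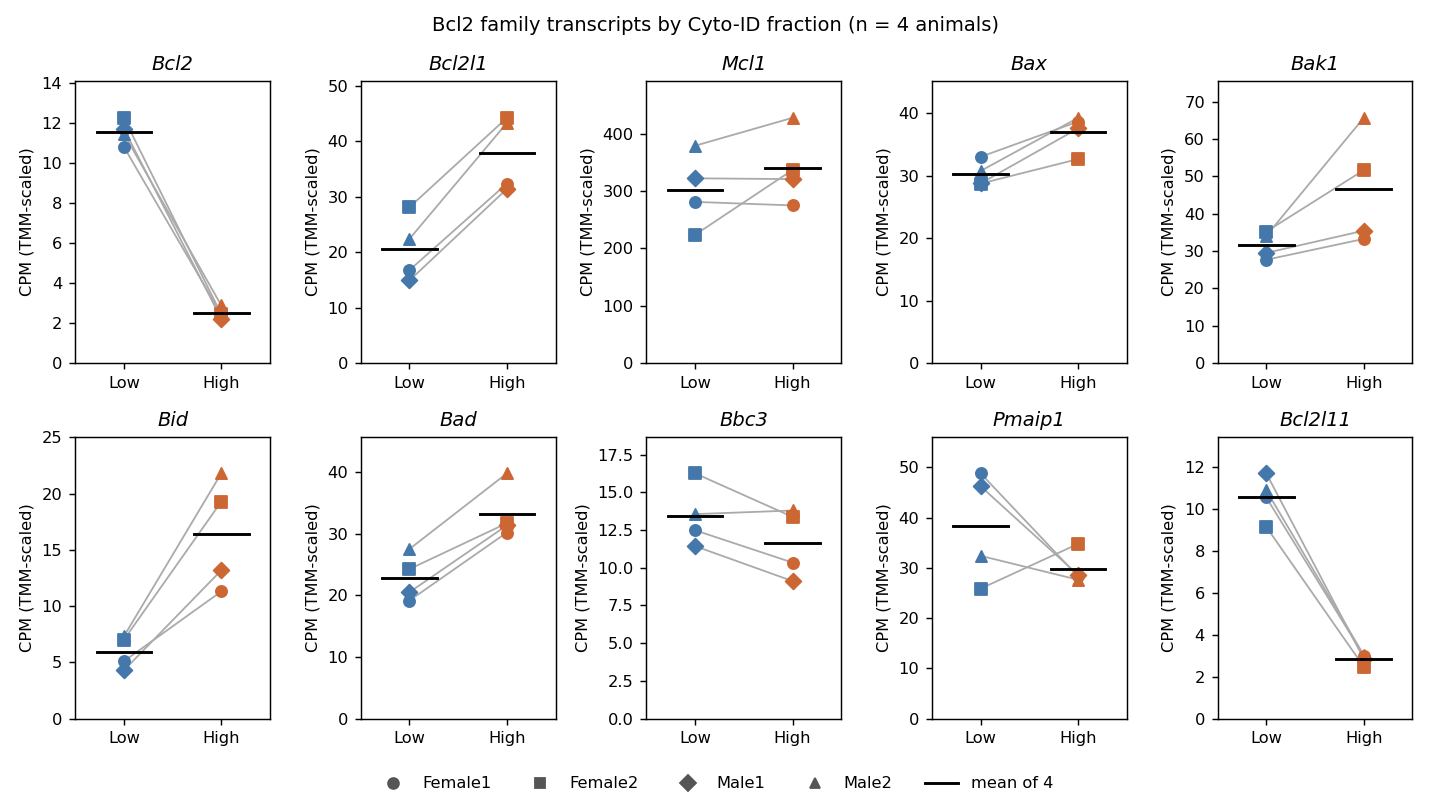
TMM-scaled CPM (y axis, from 0, own scale in each panel) of the 10 genes in the Cyto-ID Low (blue) and High (orange) libraries. Each symbol is 1 library, grey lines join the fractions of an animal and black bars are means of 4 animals. Bcl2 and Bcl2l11 drop in all 4 animals from about 11 to under 4 CPM, Bid, Bcl2l1 and Bad climb in all 4, and the lines of Mcl1, Bbc3 and Pmaip1 run in both directions.

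The protectors moved in different directions. Bcl2 (chr1:106538178-106714274, minus strand, GRCm38) encodes the founding inhibitor of mitochondrial cell death. It was at 10.8, 12.3, 11.7 and 11.5 CPM in the Low libraries of Female1, Female2, Male1 and Male2, and at 2.43, 2.44, 2.21 and 2.88 CPM in their High libraries. The fractions stood far apart and the 4 animals of a fraction lay close together. Bcl2 thus fell 4.65-fold, from a mean of 11.6 ± 0.6 to one of 2.49 ± 0.28 CPM (SD, n = 4). In edgeR the log2 difference was −2.22 with an SE of 0.17 and an adjusted p of 1.45e-05. These levels rested on 350 to 446 counts in Low and 56 to 63 in High.

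Bcl2l1 (chr2:152780668-152831728, minus strand) moved the other way. Its Low libraries held 16.7, 28.1, 14.9 and 22.4 CPM and its High libraries 32.3, 44.2, 31.4 and 43.3 CPM, in the same order of animals. Every High library lay above every Low library, although Female2 Low came near the lowest High values. Means were 20.5 ± 6.0 and 37.8 ± 6.9 CPM (SD, n = 4), and the rise of 0.89 on the log2 scale had an SE of 0.22 and an edgeR adjusted p of 0.00776. The counts are per gene, so that the protective long and the death-promoting short splice form of this gene cannot be separated. Under total counts the difference was 0.30 and did not pass (adjusted p 0.228). That scaling shifted the median of all genes from −0.09 to −0.64 on the log2 scale, and the suprabasal list summed to 11300 to 29400 CPM in Low and 155000 to 260000 in High. Its part in the shift was not tested.

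Mcl1 (chr3:95658788-95663176, plus strand), a short-lived protector, was by far the most abundant of the 10. It was at 281, 224, 322 and 379 CPM in Low and at 275, 337, 321 and 428 CPM in High. The ranges overlapped, and 2 animals were higher in High and 2 lower. Its log2 difference was 0.19 (SE 0.17, 95% interval −0.19 to 0.56, edgeR adjusted p 0.407), and it turned to −0.39 with an adjusted p of 0.019 under total counts.

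Bax and Bak1 encode the pore formers. Bax (chr7:45461697-45466898, minus strand) was at 33.0, 28.8, 28.8 and 30.8 CPM in Low and 38.7, 32.7, 37.6 and 39.3 CPM in High. Bax was higher in High in all 4 animals, yet the lowest High library fell just under the highest Low library. The difference of 0.29 on the log2 scale (SE 0.12) missed the threshold with edgeR (adjusted p 0.0827), passed it with the animal as a replicate block (0.29, adjusted p 0.0425), RLE scaling (0.0359) or DESeq2 (0.0303), and was −0.27 under total counts (adjusted p 0.131). Bak1 (chr17:27019810-27029009, minus strand) was at 27.7, 35.2, 29.5 and 34.1 CPM in Low and 33.3, 51.7, 35.5 and 65.7 CPM in High. The High libraries of Female2 and Male2 stood above all others, and those of Female1 and Male1 lay within or just above the Low range. Its log2 fold change was 0.55 (SE 0.22, edgeR adjusted p 0.0638), which became 0.51 with the replicate block (adjusted p 0.0166) and −0.05 under total counts (adjusted p 0.791). Bak1 passed in 9 of 17 alternatives. Of method these were the replicate block, RLE scaling (adjusted p 0.0419), DESeq2 (0.0242), no filter (0.0255), a minimum of 10 counts (0.0389) and no covariate (0.0497). It also passed without Female1 High (0.0286), Female2 Low (0.0442) or Male1 High (0.0277). Without Male2 High the log2 fold change was 0.33 (edgeR adjusted p 0.204) and without Female2 High 0.44 (0.195).

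Among the BH3-only genes, Bcl2l11 and Bid changed most and in opposite directions. Bcl2l11 (chr2:128126038-128162547, plus strand) encodes Bim, an activator that binds all the protectors. Its levels were 10.6, 9.16, 11.7 and 10.9 CPM in Low and 3.01, 2.48, 2.86 and 3.04 CPM in High. As with Bcl2, the ranges were narrow and far apart. With means of 10.6 ± 1.1 in Low and 2.85 ± 0.26 CPM in High (SD, n = 4), Bcl2l11 fell by 1.89 on the log2 scale (−1.89, SE 0.16), at an edgeR adjusted p of 2.17e-05. It rested on 333 to 377 counts in Low and 57 to 78 in High.

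Bid (chr6:120891930-120916853, minus strand) links death receptors to mitochondria once caspase-8 has cut its product. It was at 5.10, 7.01, 4.29 and 7.31 CPM in Low and 11.3, 19.3, 13.2 and 21.8 CPM in High. All 4 High libraries exceeded all 4 Low libraries, and within either fraction Female2 and Male2 were higher than Female1 and Male1. Bid rose by 1.46 on the log2 scale (SE 0.26), with an adjusted p of 0.00133 in edgeR. Its means were 5.93 ± 1.47 and 16.4 ± 5.0 CPM (SD, n = 4). With total counts the rise was 0.86 (edgeR adjusted p 0.00948). Exons of Bid share 628 bases with those of Bcl2l13 on the other strand, and the counting's use of strand is not given in the sources used here. Bcl2l13 stood at a mean of 129 CPM in Low and 157 in High and did not pass (log2 fold change 0.28, adjusted p 0.143), so some uncertainty remains in the reads of Bid.

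Bad (chr19:6941861-6951899, plus strand) encodes a sensor of growth factor signals that binds Bcl2 and Bcl-xL. Its Low libraries held 19.2, 24.3, 20.5 and 27.5 CPM and its High libraries 30.2, 31.7, 31.3 and 39.8 CPM. The High libraries all lay above the Low ones. It rose by 0.54 (SE 0.15, edgeR adjusted p 0.0152), which was lost without Male1 Low (adjusted p 0.0585) and became −0.03 under total counts (adjusted p 0.845). Its exons share 524 bases with those of Gpr137 on the other strand, at means of 15.6 and 18.3 CPM. The genes that overlap exons of Bcl2, Bax and Bak1 (D630008O14Rik, Gm45808 and Ggnbp1) held at most 1, 0 and 33 counts in any library.

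Bbc3 and Pmaip1 are 2 classical targets of p53 and encode Puma and Noxa. Bbc3 (chr7:16308393-16318205, plus strand) was at 12.5, 16.3, 11.4 and 13.6 CPM in Low and 10.3, 13.4, 9.11 and 13.8 CPM in High. The ranges overlapped, and on the log2 scale Bbc3 differed by −0.20 (SE 0.18, 95% interval −0.62 to 0.21, edgeR adjusted p 0.403). Pmaip1 (chr18:66458533-66465565, plus strand) was at 48.8, 25.9, 46.2 and 32.4 CPM in Low and 28.3, 34.8, 28.6 and 27.6 CPM in High. Its Low libraries split, with Female1 and Male1 above 46 CPM and Female2 and Male2 below 33, while the High libraries spanned 27.6 to 34.8 CPM with Female2 highest. Its log2 difference of −0.36 (SE 0.21) had an edgeR adjusted p of 0.189. It was −0.53 and passed without Female2 Low (adjusted p 0.0191). By animal number, a grouping made after the values were seen, it was −0.69 in Female1 and Male1 and 0.11 in Female2 and Male2. Female1 and Male1 were the most alike pair in either fraction (chi-square per degree of freedom 26.4 in Low and 17.7 in High). The labels do not say whether the number stands for a shared batch or day, and its part in the split was not tested. Under total counts both genes were lower in High, by −0.79 for Bbc3 (adjusted p 0.00179) and −0.92 for Pmaip1 (adjusted p 0.00468).

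**Figure D2:**
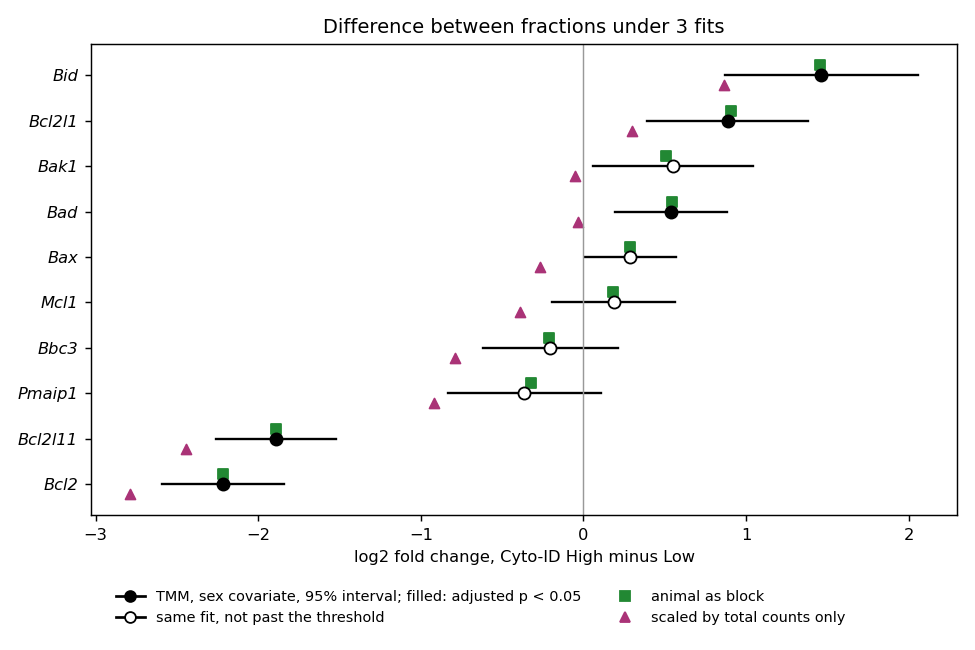
Log2 fold change (x axis, Cyto-ID High minus Low) of each gene in the fit with TMM scaling and sex as a covariate (circles with 95% intervals, filled where the adjusted p was under 0.05), with the animal as a block (squares) and with total counts only (triangles). The triangles sit to the left throughout, and Bcl2, Bcl2l11 and Bid keep their side of 0 in all 3 fits, as Bcl2l1, Bbc3 and Pmaip1 do, while Bax, Bak1, Bad and Mcl1 cross it.

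Levels of different genes were compared as CPM per kb of exon, which corrects for the length of the transcripts. In Cyto-ID Low the order of means was Mcl1 (88.2 ± 19.2 CPM per kb), Bax (19.3 ± 1.3), Pmaip1 (14.0 ± 4.0), Bak1 (13.1 ± 1.5), Bad (8.93 ± 1.48), Bbc3 (6.32 ± 0.98), Bcl2l1 (4.47 ± 1.3), Bid (1.67 ± 0.41), Bcl2l11 (1.32 ± 0.13) and Bcl2 (1.26 ± 0.07), with SD and n = 4. Mcl1 exceeded Bax by 2.17 on the log2 scale in the same library, while the neighbours Pmaip1 and Bak1, Bid and Bcl2l11, and Bcl2l11 and Bcl2 changed places between animals. In Cyto-ID High the order was Mcl1 (99.5 ± 18.7), Bax (23.5 ± 1.9), Bak1 (19.3 ± 6.3), Bad (13 ± 1.7), Pmaip1 (10.9 ± 1.2), Bcl2l1 (8.24 ± 1.5), Bbc3 (5.49 ± 1.08), Bid (4.62 ± 1.4), Bcl2l11 (0.355 ± 0.032) and Bcl2 (0.272 ± 0.031). Here Bax and Bak1, and Bad and Pmaip1, changed places between animals. Bid and Bcl2l11, next to each other in both of these orders, differed by 0.31 ± 0.48 in Low and by 3.66 ± 0.50 in High on the log2 scale (SD, n = 4). Bcl2 was last of the 10 in both fractions. The middle of the order depends on the length used. By the longest transcript of each gene it ran Mcl1, Bax, Bad, Pmaip1, Bak1, Bcl2l1, Bbc3, Bid, Bcl2l11 and Bcl2 in Low, and Mcl1, Bax, Bad, Bak1, Bcl2l1, Pmaip1, Bid, Bbc3, Bcl2l11 and Bcl2 in High. The level of Bcl2l1 was then 7.99 ± 2.32 CPM per kb in Low and 14.7 ± 2.7 in High.

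**Figure D3:**
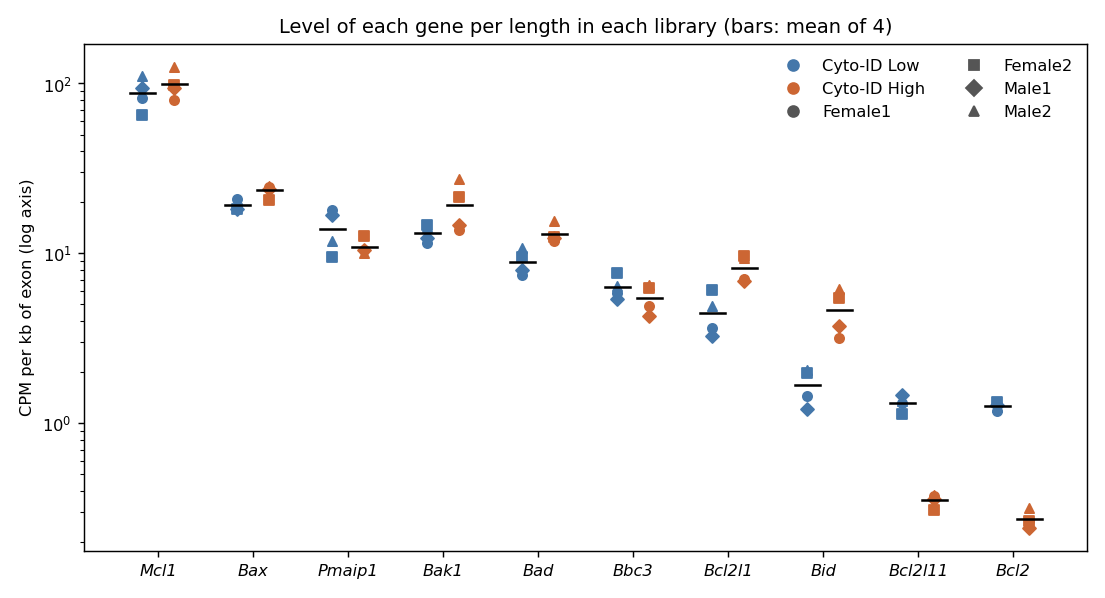
CPM per kb of exon (log y axis) of the 10 genes in each library, in the order of their Low means, with Cyto-ID Low in blue, High in orange, a symbol per animal and bars at the mean of 4. Mcl1 lies above all other genes in every library, and the gap between Bid and the pair Bcl2l11 and Bcl2 opens in the High libraries.

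Ratios of 2 transcripts within a library do not depend on how libraries are scaled to each other, and so 6 fixed ratios of CPM per kb were computed, with no test. Their size depends on the exon length used for each gene, while the difference between fractions does not. Bax to Bcl2 was 17.8, 13.6, 14.3 and 15.6 in the Low libraries of Female1, Female2, Male1 and Male2 and 92.5, 77.9, 98.8 and 79.3 in their High libraries. The fractions did not overlap, and the ratio was 5.69-fold higher in High (log2 difference 2.51 ± 0.20, SD over 4 animals). Bax to Bcl2l1 went in the other direction, from 4.59 ± 1.34 in Low to 2.94 ± 0.66 in High, lower in High in 4 of 4 animals with overlapping ranges. The 2 comparisons of the same pore former with a protector thus had opposite signs.

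Among the protectors, Bcl2 to Bcl2l1 was 0.323, 0.219, 0.394 and 0.257 in Low and 0.0376, 0.0276, 0.0353 and 0.0333 in High. It was 8.74-fold lower in High (log2 difference −3.13 ± 0.24), lower in all 4 animals and with no overlap. Mcl1 to Bcl2l1 was 21.3 ± 7.7 in Low and 12.2 ± 1.6 in High, or 11.9 ± 4.3 and 6.8 ± 0.9 by the longest transcript. It was lower in High in 4 of 4 animals, but hardly so in Female2 (−0.065 on the log2 scale), beside −0.98, −1.08 and −0.78 in Female1, Male1 and Male2. When Mcl1, Bcl2l1, Bcl2 and the related protector Bcl2l2 were summed per kb, Mcl1 made up 84.9% ± 4.0 of the sum in Low and 82.8% ± 1.1 in High. Bcl2 made up 1.25% ± 0.26 in Low and 0.229% ± 0.029 in High, and Bcl2l1 made up 4.51% ± 1.95 and 6.90% ± 0.87 (SD, n = 4). By the longest transcript the share of Bcl2l1 was 7.6% ± 3.1 in Low and 11.5% ± 1.4 in High, and that of Mcl1 80.5% ± 5.1 and 77.2% ± 1.5.

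Bcl2l11 to Mcl1, an activator against the most abundant protector, was 0.0153 ± 0.0022 in Low and 0.00365 ± 0.00075 in High, 4.21-fold lower in High with no overlap (0.0244 ± 0.0035 and 0.00582 ± 0.00120 by the longest transcript). Bak1 to Mcl1 was 0.155 ± 0.046 in Low and 0.191 ± 0.032 in High (SD, n = 4), higher in 3 of 4 animals with overlapping ranges, since Female2 was at 0.224 in Low and 0.218 in High.

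**Figure D4:**
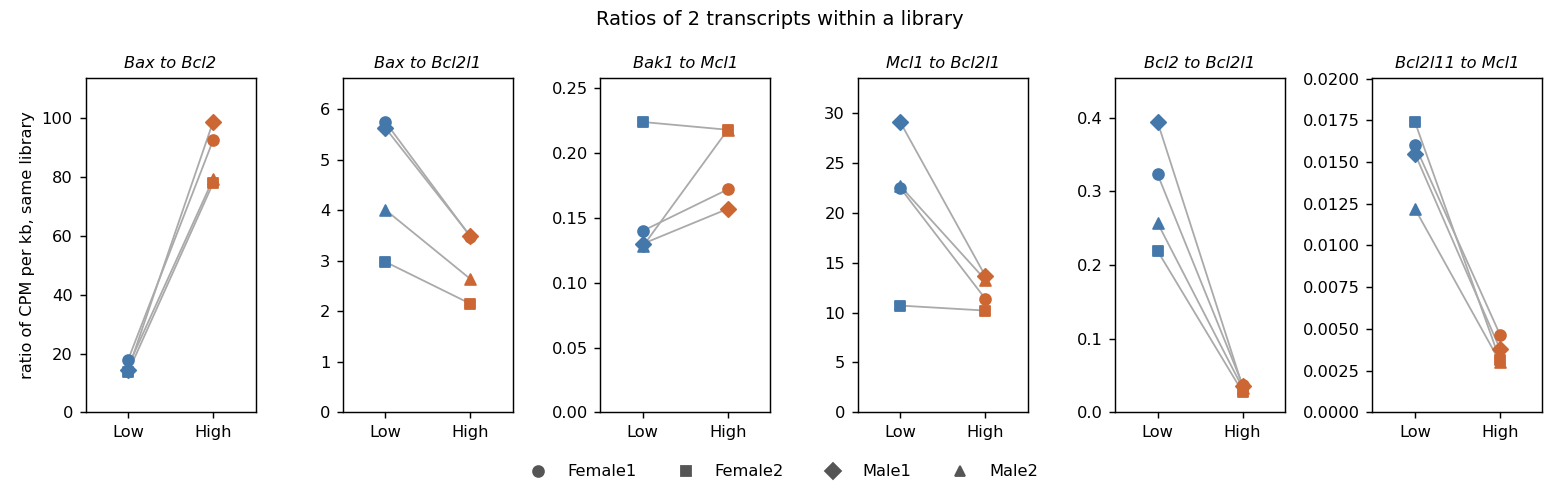
Ratio of CPM per kb of 2 genes in the same library (y axis from 0, own scale in each panel) for Cyto-ID Low (blue) and High (orange), with a symbol and a grey line per animal. Bax to Bcl2 is above 77 in all High and below 18 in all Low libraries, Bcl2 to Bcl2l1 and Bcl2l11 to Mcl1 drop in every animal, and Bak1 to Mcl1 overlaps.

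Both sexes gave both fractions, and the difference between fractions was tested for dependence on sex. None of the 10 genes passed the interaction of sex and fraction (edgeR, 0 at an adjusted p under 0.05 and 0 at an unadjusted p under 0.05), nor did any of all genes tested (0, and 19 or 0.11% at the unadjusted level). The male minus female difference in log2 fold change was 0.05 (SE 0.36) for Bcl2, −0.10 (SE 0.36) for Bcl2l11 and 0.26 (SE 0.56) for Bid. With 2 animals of each sex the SE of this term ran from 0.27 (Bax) to 0.56 (Bid) over the 10 genes. Only large differences between the sexes were thus detectable. The 0.11% lies far below the share of 0.05 that chance alone gives at this level, so the test was conservative. It left out the animal, and with the replicate block 38 genes reached this level.

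The pattern of the 2 members with the lowest and the highest fold change across the 8 libraries was set beside that of 10025 other genes at a mean of 5 CPM or more. The genes most like Bcl2 in log2 CPM were Sntb2, Eif4e3 and Phf12 (Pearson r 0.9996, 0.9989 and 0.9986 over 8 libraries), which had log2 fold changes of −2.59, −1.97 and −1.83. The genes most like Bid were Gjb5, Plcg1 and Mxi1 (r 0.9956, 0.9953 and 0.9937), with 1.83, 1.14 and 1.55. A value above 0.9 was reached by 1694 genes for Bcl2 and 2118 for Bid. All 8 libraries entered each value, so it includes the split into 2 fractions, and correlation within a fraction was not tested.

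The counts of the lists that follow stand beside 23.4% of all tested genes called higher and 25.3% called lower, with a median of −0.09. Under total counts these shares are 12.6% and 49.1%, with a median of −0.64, and no list was tested as a whole.

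The other Bcl2 family genes were taken from a list of 15, of which 9 were tested and 6 were too low (Bcl2a1a, Bcl2a1b, Bcl2a1d, Bcl2l10, Hrk and Bcl2l15, each with at most 15 counts in any library). Of the 9, 2 were higher and 1 was lower in Cyto-ID High, with a median log2 fold change of 0.28. Under total counts 2 were higher and 2 lower, with a median of −0.29. Bik, a BH3-only gene, rose by 1.66 on the log2 scale (SE 0.34, adjusted p 0.0025 in edgeR), between means of 0.915 ± 0.276 and 2.94 ± 1.07 CPM. Bcl2l14, the other gene called higher (log2 fold change 2.36, SE 0.48), held 2 to 7 counts in Low and 13 to 25 in High. It passed the filter on low counts only through its High libraries, so this call does not count as support for a rise. It shares 577 exon bases with 4933406J09Rik on the other strand. Bcl2l12 fell by 0.44 on the log2 scale (−0.44, SE 0.16, adjusted p 0.0446), a call that RLE scaling lost (adjusted p 0.08), and shares 660 exon bases with Irf3 and Gm15545 on the other strand. Bok, a relative of Bax, was at 59.4 ± 15.3 and 72.5 ± 10.9 CPM and did not pass (log2 fold change 0.29, adjusted p 0.281). Bcl2l2, which encodes the protector Bcl-w, was at 42.3 ± 4.5 and 54.1 ± 9.0 CPM (log2 fold change 0.35, adjusted p 0.0746), and passed with the replicate block (adjusted p 0.0235) and with RLE scaling (0.0358). Exons of Bcl2l2 and Bnip3 overlap those of Gm20521 (same strand) and Gm45507 (other strand). The mitophagy receptors Bnip3 and Bnip3l had log2 fold changes of 0.07 and 0.27 (adjusted p 0.846 and 0.213). Both were higher in High in 3 animals and lower in Male2 (−1.09 and −0.22). Bcl2l13 changed by 0.28 (adjusted p 0.143), but by −0.30 and was called lower under total counts (adjusted p 0.0277). The BH3-only gene Bmf changed by −0.18 (adjusted p 0.665).

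Of 17 genes of the apoptosome and the caspases 8 were lower and 2 higher in Cyto-ID High, with a median of −0.41, and under total counts 10 and 2, with −0.99. Casp6, an effector caspase, fell from 23.7 ± 4.0 to 4.10 ± 1.39 CPM (log2 −2.55, SE 0.24, adjusted p 3.28e-05). Apaf1, the scaffold that cytochrome c turns into the apoptosome, changed by −0.79 (adjusted p 0.00915), while Casp9, the caspase it recruits, did not pass (0.07, adjusted p 0.872), and Cela2a and Ctrc overlap its exons on the other strand. Dffa, which encodes the inhibitor of the caspase-activated DNase, rose from 23.6 ± 4.4 to 70.4 ± 17.9 CPM, or by 1.57 (SE 0.21, adjusted p 0.000242). Endog, a mitochondrial nuclease, rose by 1.05 (SE 0.16, adjusted p 0.000474), and shares exon bases with Spout1 on the other strand. The rises of Dffa and Endog were 0.98 and 0.49 under total counts (edgeR adjusted p 0.00106 and 0.0348).

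Of 13 tested genes of the death receptor pathway 4 were lower and 2 higher, with a median of −0.25, and under total counts 7 and 1, with −0.82. The receptor gene Fas fell from 20.2 ± 10.9 to 1.48 ± 0.84 CPM (log2 −3.73, SE 0.43, adjusted p 9.44e-05), and Tnfrsf21 changed by −2.02 (SE 0.24, adjusted p 9.44e-05). Tnfrsf1a, which encodes a receptor for tumor necrosis factor, rose from 143 ± 12 to 293 ± 64 CPM, or by 1.03 (SE 0.16, adjusted p 0.000582). Its rise was 0.45 under total counts (edgeR adjusted p 0.00473). The adaptor Fadd was higher by 0.84 (SE 0.20, adjusted p 0.00568), a call lost under total counts (0.26, adjusted p 0.258), and exons of Faddos overlap it on the other strand. Casp8, whose product cuts Bid, had a log2 fold change of 0.46 and did not pass (SE 0.21, adjusted p 0.0964), except with RLE scaling (0.53, adjusted p 0.0475).

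Among 15 tested genes of outer membrane proteins and binding partners 7 were higher and 3 lower, with a median of 0.32. Under total counts 3 were higher and 7 lower, with a median of −0.24, near the 49.1% of all genes that were then lower. Ppif, which encodes cyclophilin D of the permeability pore, rose from 39.6 ± 8.0 to 183 ± 71 CPM (log2 fold change 2.18, SE 0.24, adjusted p 6.62e-05), and Hk2, a hexokinase that docks on mitochondria, by 1.72 (SE 0.20, adjusted p 9.39e-05). Tspo changed by −1.38 (SE 0.15, adjusted p 5.49e-05) and Vdac3 by −0.61 (SE 0.14, adjusted p 0.00501). Exons of Ppif, Tspo and Becn1 overlap those of Ppifos, Mcat and Cntd1 on the other strand. Becn1, which encodes the autophagy protein Beclin 1 held by Bcl2, rose from 62.5 ± 1.5 to 97.6 ± 16.3 CPM, higher by 0.64 (SE 0.15, adjusted p 0.00521), while under total counts it differed by 0.06 (adjusted p 0.617).

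The list of p53 and its targets moved in both directions, with 6 of 17 higher, 7 lower and a median of −0.22, and under total counts 4 higher, 9 lower and −0.77. Trp53 itself fell from 97.8 ± 7.7 to 38.2 ± 11.1 CPM (log2 fold change −1.37, SE 0.18, adjusted p 0.000176), and its relative Trp73 from 32.1 ± 6.7 to 1.95 ± 0.48 CPM (−4.04, SE 0.25, adjusted p 1.27e-05). Cdkn1a, an inhibitor of cell cycle kinases, rose from 287 ± 90 to 1247 ± 346 CPM, or by 2.12 (SE 0.26, adjusted p 0.000115), and Zmat3 by 2.09 (SE 0.14, adjusted p 1.3e-05). Trp53i11 changed by −3.21 (SE 0.21, adjusted p 1.3e-05). Exons of Trp73 and Cdkn1a overlap Trp73os and AC167363.2 on the other strand.

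Factors known to induce BH3-only genes were lower in 4 of 10 cases and higher in 1, with a median of −0.37, and under total counts in 6 and 1, with −0.90. Foxo3, an activator of Bcl2l11 in many cells, rose from 84.8 ± 7.5 to 163 ± 33 CPM (log2 fold change 0.95, SE 0.17, adjusted p 0.00142). This rise was 0.36 under total counts (edgeR adjusted p 0.0174). Of the other FOXO genes in the list, named after their values were seen, Foxo1 fell from 83.9 ± 9.7 to 43.2 ± 4.9 CPM (log2 −0.96, SE 0.14, adjusted p 0.000427), and Gm20402 overlaps its exons on the other strand. Foxo4 did not pass (0.14, adjusted p 0.502), but was lower under total counts (−0.44, adjusted p 0.013). E2f1 and Mybl2, factors of cycling cells, changed by −1.62 (SE 0.30, adjusted p 0.00164) and −2.19 (SE 0.46, adjusted p 0.00293). Of 10 genes that act on the stability of the Mcl1 protein, 3 were higher and 2 lower, with a median of 0.11. Under total counts 0 were higher and 7 lower, with a median of −0.46, where that of all genes was −0.64. Huwe1, a ubiquitin ligase of Mcl1, was higher by 0.79 (SE 0.18, adjusted p 0.00555) and the kinase gene Cdk5 by 0.47 (SE 0.18, adjusted p 0.0473), and both calls were lost under total counts (adjusted p 0.328 and 0.501). Fbxw7, part of another ligase of Mcl1, was lower by −0.42 (SE 0.14, adjusted p 0.0366), which RLE scaling lost (adjusted p 0.0579).

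**Figure D5:**
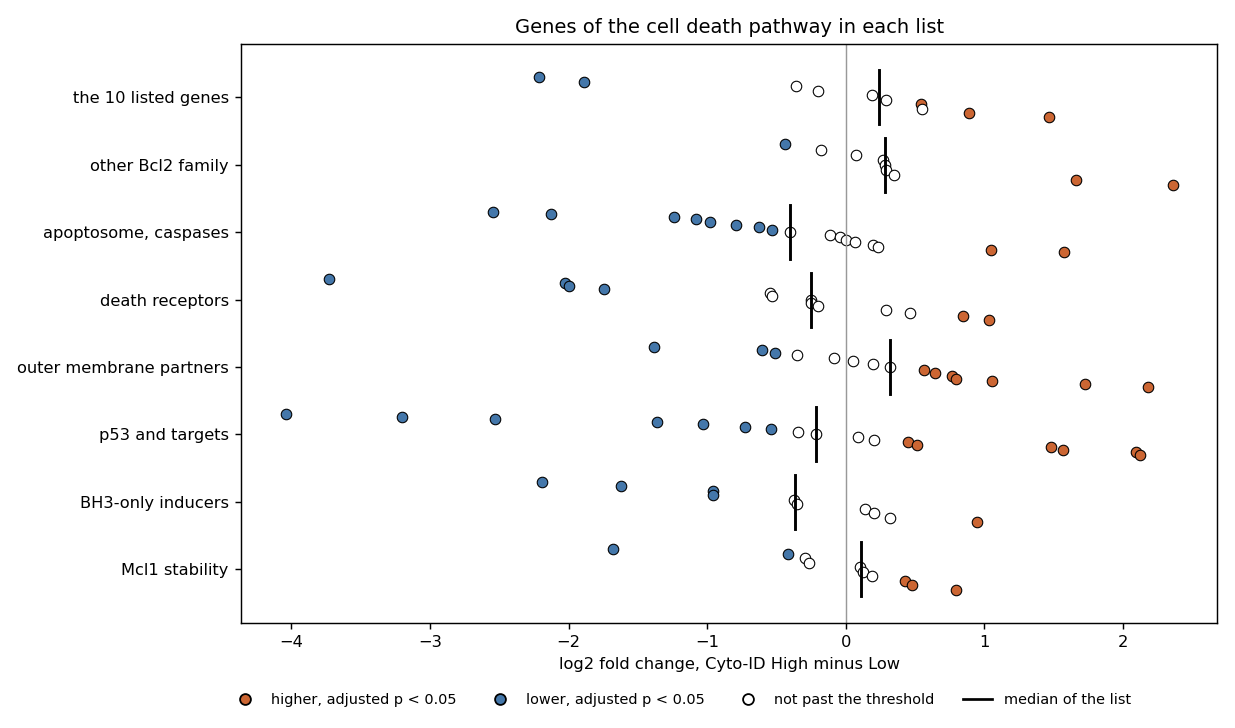
Log2 fold change (x axis, Cyto-ID High minus Low) of each tested gene in the 10 listed genes and 7 pathway lists, filled orange where higher, filled blue where lower (adjusted p under 0.05) and open otherwise, with black bars at list medians. Every list holds genes on both sides of 0, and the list medians lie between −0.41 and 0.32.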

How the data were processed

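RNA was sequenced in bulk from 8 sorted cell samples, and the values the authors deposited are raw counts in a single table with gene symbols as rows, as their whole numbers and unequal totals show. STAR 2.7.3, DESeq2 and the GRCm38 build are named in the submitters' processing notes. The counting tool, annotation and use of strand are not given in the sources used here. Columns were matched to samples by animal and fraction.

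The 10 genes, the gene lists and the tests were chosen with earlier results of these data known. The main test used edgeR 4.0.16 in R 4.3.3: genes filtered by filterByExpr by fraction, libraries scaled by TMM, a quasi-likelihood fit (glmQLFit, glmQLFTest) of fraction with sex as covariate, and Benjamini-Hochberg adjustment over all tested genes at 0.05, two-sided. Log2 CPM used a prior count of 2, and standard errors are the log2 fold change over the root of F. Lengths, positions and exon overlaps came from GENCODE M21 (GRCm38), and upstream sequence from RefSeq (GRCm38.p6), where 9 of the 10 genes had an entry. Named genes are the 10, the tested genes of the other family list, and in each pathway list up to 2 with the largest change in each direction among those called at a mean of 5 CPM or more, plus Becn1, Trp53, Casp9, Apaf1 and Casp8, the marker Itgb1, and the genes most correlated with Bcl2 and Bid. Foxo1 and Foxo4 were added after their values were seen. 1 gene that this rule names is not reported here. The alternatives tried were other scalings (RLE, total counts), other filters (none, or 10 counts in all libraries), a robust dispersion, DESeq2 1.42.0, limma-voom with limma 3.58.1, a fit with no covariate, each animal as a replicate block, and each library left out.

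Libraries of 1 animal form a pair in the block, since the labels name the animal. Deviations from fraction means correlated within the pair at 0.43 (Female1), 0.32 (Female2), −0.016 (Male1) and 0.28 (Male2). Between unlike animals they ran from −0.37 (Low Female1, High Male2) to 0.35 (Low Female1, High Male1). On simulated counts in which 200 of 16905 genes differed by 1.5 in log2, the main design for High against Low found 92.5% of them and called 15 others. In the 8 libraries 48.7% of all genes tested passed, and how the design performs with so many differing genes was not tested. No 2 libraries of a fraction agreed within sampling noise (chi-square per degree of freedom at least 17.7).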

Additional observations from a re-analysis of the deposited data

Results flagged for a closer look

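Dixon's test of the highest and the lowest library was run in 32 groups of 4 (10 genes and 6 ratios in both fractions). It marked 3, and 1 in 20 groups is what chance alone gives. Bad stood at 39.8 CPM in Male2 High, where the other High libraries held 30.2, 31.7 and 31.3. Pmaip1 stood at 34.8 CPM in Female2 High, beside 28.3, 28.6 and 27.6. The ratio of Bak1 to Mcl1 was 0.224 in Female2 Low, beside 0.14, 0.13 and 0.128. Female2 was the animal with stomach markers in both libraries, and Male2 High was the library with the fewest leukocyte and stromal transcripts. Their part in these values was not tested.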

How the results depend on the processing

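Each of the 10 genes was refitted under 17 alternatives, 9 of method and 8 that left out a library. Of the 170 values, 149 gave the same sign and the same call. A total of 16 newly passed the threshold and 3 no longer passed, and 4 changed sign, among them Mcl1, which newly passed, and Bad, which no longer passed. Bcl2, Bcl2l11 and Bid were the 3 genes with the same sign and call in all 17. The number called among the 10 ran from 5 to 7 under the alternatives of method, which called 25.0% (no filter) to 61.7% (total counts) of all genes tested, and from 4 to 7 when a library was left out (41.0% to 46.0%). The animal as a replicate block gave 7, adding Bax and Bak1, and changed no other call of the 10. The 4 changes of sign all came from total counts only: Mcl1 −0.39, Bax −0.27, Bak1 −0.053 and Bad −0.035. That scaling gave 2194 higher and 8514 lower over all genes in place of 4055 and 4385. It also turned the medians of the other Bcl2 family to −0.29, of outer membrane partners to −0.24 and of Mcl1 stability to −0.46. No gene of the 10 passed the sex interaction under total counts, without a filter or with the replicate block (0 in each). Alternatives added after the data were seen gave 8 genes called in Female1 and Male1 alone (58.2% of all genes tested there) and 5 in Female2 and Male2 alone (46.2%), where Pmaip1 was 0.11. Without both libraries of Female2 there were 7 (43.3%), and without those of Male2 5 (41.1%). With the longest transcript in place of all exons, 13 of 20 levels per kb moved by more than 1 SD, while Mcl1 and Bax remained first and second and Bcl2l11 and Bcl2 last in both fractions. Bcl2 and Bcl2l11 rest on 56 to 78 counts in the High libraries.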
